A study of Mus musculus with 8 samples.

Results

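Has1, Has2, Has3, Hyal1, Hyal2, Tmem2, Cd44, Ugdh and Ugp2 are 9 genes of hyaluronan synthesis, breakdown, binding and precursor supply, out of 24421 gene symbols counted in each library. They were picked by gene symbol from earlier results on the same libraries, among them the knockout-versus-control differences. Those differences are therefore given as a description, with fold changes and standard errors but no p-value for these 9 genes. All 9 passed the filter on low counts.

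The data are RNA sequencing counts of keratinocytes from mouse skin, in 4 knockout libraries (InvEE, K5 Cre+, HMGB1 fl/fl) and 4 control libraries (InvEE, K5 Cre-, HMGB1 fl/fl), strain CBA x C57Bl/6J in both groups. The InvEE transgene, shared by all 8 libraries, expresses an activated form of the kinase MEK1 from the involucrin promoter, which is active in suprabasal keratinocytes. K5-Cre acts in basal keratinocytes and their descendants. Since K5-Cre was present in the knockout group alone, an effect of Cre and an effect of losing Hmgb1 cannot be told apart. Age and sex were not in the labels, and the labels number the libraries without saying that each is a separate animal, so the spread between them may be partly technical.

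Hyaluronan is a long unsulfated sugar polymer of the space between cells, and in the epidermis it surrounds keratinocytes of the living layers. It is made at the plasma membrane by the synthases Has1, Has2 and Has3 from UDP-glucuronic acid and UDP-N-acetylglucosamine. CD44 is its main receptor on keratinocytes, and hyaluronidases cut the chains at the cell surface and in lysosomes.

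Library totals lay between 30506700 and 34229000 gene counts, rounded. Hmgb1 itself had 113, 119, 126 and 114 counts scaled to library size (CPM, with TMM-scaled library sizes) in the knockout libraries, against 565, 599, 585 and 615 CPM in the control libraries. In 3 libraries, knockout replicate 1 and control replicates 2 and 3, Y-linked transcripts had between 6110 and 6743 counts. The other 5 had between 0 and 51, and the 9 fold changes are also given for those 5 alone. Keratinocyte markers summed to 55361 to 61516 CPM in knockout libraries and 46266 to 56912 CPM in control libraries, with all 8 markers detected. In bulk RNA, fewer cells of a type and less RNA per cell cannot be told apart. Of 13016 genes tested with edgeR's quasi-likelihood test, 8.87% passed an adjusted p of 0.05, 4.33% higher and 4.54% lower in the knockout. At that threshold 1 of the 9 hyaluronan genes was higher and 2 were lower, which is not read as a result because this contrast chose them. Knockout libraries lay wholly above control libraries in 7.95% of tested genes and wholly below them in 9%. Hyal1 and Cd44 were among the first kind and Has2 and Ugdh among the second. The median log2 fold change was 0.03 over the 9 genes and -0.02 over all tested genes.

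**Figure D1:**
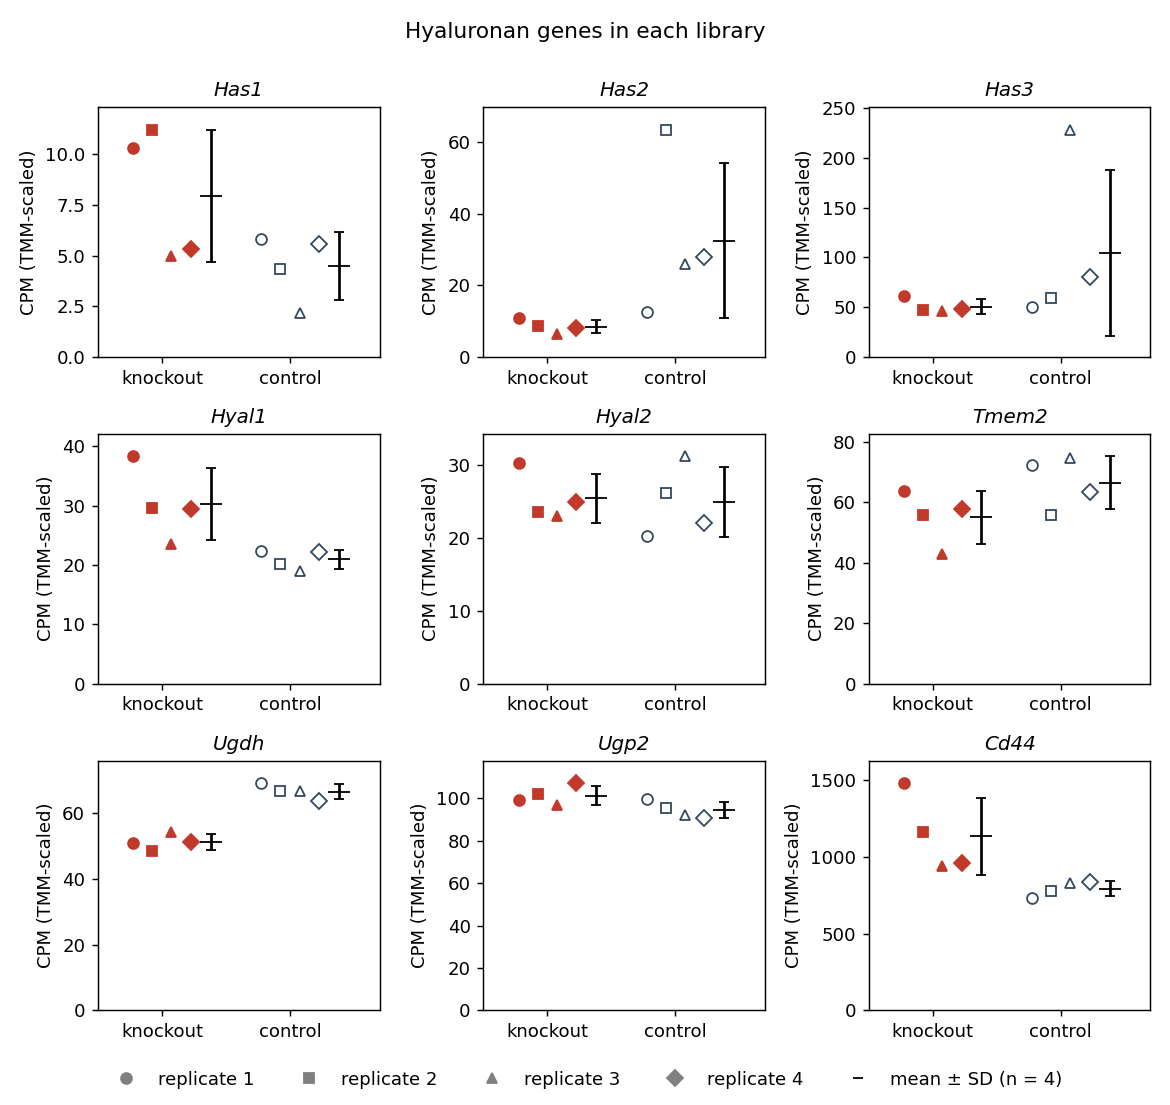
CPM (y axis, linear, from 0) of the 9 hyaluronan genes in each of the 4 knockout and 4 control libraries, with the mean ± SD beside the points. Has2 and Ugdh lie lower and Hyal1 and Cd44 higher in every knockout library than in every control library, and single control libraries stand far above the rest in Has2 (63.5 CPM) and Has3 (228 CPM).

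Among the synthases, Has2 was lower in every knockout library. Has2 (chr15:56665627-56694546, mm10) encodes the synthase that makes most of the hyaluronan in many mouse tissues. It had 10.8, 8.77, 6.37 and 7.99 CPM in the knockout libraries, against 12.7, 63.5, 26.1 and 27.8 CPM in the control libraries. The knockout libraries were close together and all low, and control replicate 1 came nearest to them. The means were 8.48 ± 1.83 CPM in the knockout and 32.5 ± 21.7 CPM in the control (SD over 4 libraries each). This was 3.83-fold lower, or -1.94 on the log2 scale with an SE of 0.44. The counts behind these values were 197 to 301 in knockout libraries and 454 to 1987 in control libraries. Without control replicate 2, the highest, the log2 fold change was -1.39, and it was -2.21 without control replicate 1. The 5 libraries that lack Y-linked transcripts also gave -1.39. The antisense gene Has2os overlaps Has2, and whether strand was used in counting is not given in the sources used here. Has2os had 5, 1, 1 and 0 counts in the knockout libraries and 8, 9, 8 and 3 in the control libraries, far fewer than Has2 itself. These counts do not show how many antisense reads were counted to Has2, which was not tested.

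Has3 (chr8:106870242-106882902) encodes the synthase with the highest mean level per kilobase of the 3 in both groups. Its level was 61.3, 46.8, 45.9 and 48.3 CPM in the knockout libraries, against 49.9, 59.2, 228 and 80.6 CPM in the control libraries. The groups overlapped, and most of the distance between the means came from control replicate 3. The means were 50.6 ± 7.18 CPM in the knockout and 104.5 ± 83.5 CPM in the control, a log2 fold change of -1.05 (SE 0.47), or 2.07-fold lower. Without control replicate 3 the log2 fold change was -0.32, and it was -0.47 over the 5 libraries that lack Y-linked transcripts. That library also had the highest summed level of leukocyte markers among the controls, 13.3 CPM against 2.78 to 4.55 CPM in the other control libraries, and knockout libraries had 3.82 to 11.4 CPM. Among those markers, its level of S100a8 was 4.59 CPM, against at most 0.223 CPM in every other library. S100a8 counts do not show which cells they came from. The part of leukocytes in the Has3 value was not tested.

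Has1 (chr17:17833691-17855589) encodes the synthase with the lowest mean level per kilobase in the control, and it was the one of the 3 with a higher mean in the knockout. It had 10.3, 11.2, 4.98 and 5.30 CPM in the knockout libraries, against 5.84, 4.31, 2.16 and 5.55 CPM in the control libraries. Knockout replicates 1 and 2 stood above all controls, while replicates 3 and 4 lay within the control range. The means were 7.94 ± 3.25 CPM in the knockout and 4.46 ± 1.67 CPM in the control, a log2 fold change of 0.83 (SE 0.36), or 1.77-fold higher. In the 5 libraries without Y-linked transcripts the log2 fold change was 0.33. Has1 overlaps Spaca6 and Gm36907 in the RefSeq annotation, so its counts may hold or lose reads of these genes. Its promoter is shown because it is the one among the 6 genes with an entry that holds the full cyclic AMP response element TGACGTCA. The element lies 83 to 76 bases before the start that the promoter entry uses. Capitals mark that element and a CCAAT box, in sequence from RefSeq on GRCm38.p6, the assembly of mm10. The window runs from 250 bases before to 50 after that start. It lies wholly inside the gene span given above, so the start of the entry is within the annotated gene.
Has1 promoter, chr17:17855139-17855438, minus strand: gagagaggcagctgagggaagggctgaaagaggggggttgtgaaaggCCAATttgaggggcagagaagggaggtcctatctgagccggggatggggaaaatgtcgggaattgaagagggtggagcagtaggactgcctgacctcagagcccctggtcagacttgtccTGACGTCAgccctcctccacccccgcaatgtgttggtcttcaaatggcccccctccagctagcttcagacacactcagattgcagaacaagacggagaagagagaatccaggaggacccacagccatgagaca
Among 32851 promoters of that length, 1.79% hold TGACGTCA and 37.4% hold CCAAT on either strand. A match of letters is a description and not a binding site.

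The synthase transcripts were also summed in CPM per kilobase of the longest coding transcript. That sum was 17.8, 15.3, 11.7 and 12.6 in the knockout libraries, against 14.2, 27.1, 45.8 and 22.8 in the control libraries. The groups overlapped through control replicate 1, and the control sum reached higher in the other 3. Has1 made up 20.1 to 34.9% of the sum in the knockout and 2.25 to 19.6% in the control. Its share thus did not overlap between the groups, by a narrow margin. A share also rises when the other synthases are lower, so this split follows the contrast that chose the genes. Has2 made up 12.9 to 15.0% in the knockout and 13.4 to 55.4% in the control. Has3 held the largest share in every library but control replicate 2, at 51.6 to 66.7% in the knockout and 37.0 to 84.3% in the control. By this length, control libraries differed from each other in which synthase carried the sum: Has2 led in control replicate 2 and Has3 in the others. With the mean in place of the longest transcript length, Has3 was above Has2 in 8 of 8 libraries. The lead of Has2 in control replicate 2 thus depended on the length used.

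**Figure D2:**
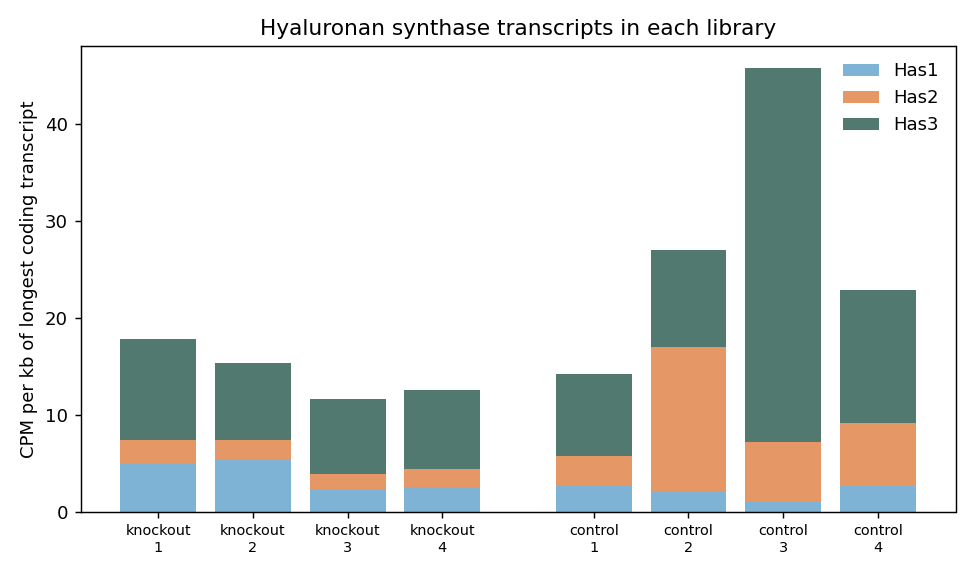
Stacked bars of Has1, Has2 and Has3 transcript levels (y axis, CPM per kilobase of the longest coding transcript) in each of the 4 knockout and 4 control libraries. The knockout bars reach 11.7 to 17.8 with similar makeup, while the control bars reach 14.2 to 45.8, with a large Has2 segment in control replicate 2 and a large Has3 segment in control replicate 3.

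The breakdown genes differed less. Hyal1 (chr9:107576950-107581699) encodes a lysosomal hyaluronidase that cuts chains into small fragments. It had 38.3, 29.6, 23.6 and 29.5 CPM in the knockout libraries, against 22.4, 20.2, 19.0 and 22.2 CPM in the control libraries. Every knockout library was above every control library, with knockout replicate 3 nearest to the controls. The means were 30.2 ± 6.04 CPM in the knockout and 20.9 ± 1.64 CPM in the control, a log2 fold change of 0.53 (SE 0.14), or 1.44-fold higher. The 5 libraries that lack Y-linked transcripts gave 0.31. Hyal1 overlaps the acetyltransferase gene Naa80 (Nat6 in the files) and Hyal3. Nat6 had 39.2 ± 3.53 CPM in the knockout and 32.4 ± 3.28 CPM in the control (adjusted p = 0.121, edgeR quasi-likelihood test), and the share of reads the 2 genes exchange was not tested. The Hyal1 promoter is shown for 2 overlapping GC boxes, GGGCGG on the opposite strand, and a CCAAT box on that strand, all in capitals.
Hyal1 promoter, chr9:107576700-107576999, plus strand: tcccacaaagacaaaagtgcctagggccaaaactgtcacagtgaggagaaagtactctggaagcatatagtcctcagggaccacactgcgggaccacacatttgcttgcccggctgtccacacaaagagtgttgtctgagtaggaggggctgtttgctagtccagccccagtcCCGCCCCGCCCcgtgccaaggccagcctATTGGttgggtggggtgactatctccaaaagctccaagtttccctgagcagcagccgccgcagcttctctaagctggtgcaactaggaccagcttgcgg
GC boxes occur in 35.7% of all promoters of that length, so Hyal1 shares this feature with many genes.

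Hyal2 (chr9:107567873-107572778) lies just before Hyal1 on the same strand and encodes a hyaluronidase anchored to the cell surface by a lipid tail. It had 30.3, 23.5, 23.0 and 24.9 CPM in the knockout libraries, against 20.3, 26.2, 31.2 and 22.1 CPM in the control libraries. The values were interleaved, and the log2 fold change was 0.03 (SE 0.15), with its sign kept in 13 of 18 alternatives and a range from -0.09 to 0.17. Tmem2 (RefSeq symbol Cemip2, chr19:21778340-21858360) encodes a transmembrane protein described as a cell-surface hyaluronidase in mouse. It had 63.9, 56.0, 43.0 and 57.8 CPM in the knockout libraries, against 72.5, 55.8, 74.5 and 63.4 CPM in the control libraries. The groups overlapped, with knockout replicate 3 the lowest of all 8 libraries, and the log2 fold change was -0.27 (SE 0.13). The 2 neighbouring hyaluronidase genes on chromosome 9 thus gave different values, Hyal1 higher in all 4 knockout libraries and Hyal2 interleaved.

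Cd44 (chr2:102811141-102901669), the receptor, was the most abundant of the 9 genes. It had 1482, 1161, 942 and 958 CPM in the knockout libraries, against 735, 776, 831 and 837 CPM in the control libraries. All knockout libraries were above all control libraries, and the knockout values were more scattered, led by replicate 1. The means were 1136 ± 251 CPM in the knockout and 795 ± 48.3 CPM in the control, a log2 fold change of 0.52 (SE 0.15), or 1.43-fold higher, and 0.37 without knockout replicate 1. Counts are per gene, so the splice variants of CD44, which differ between epithelial and mesenchymal cells, are not separated. Fibroblast markers, a cell type that also carries CD44, summed to 249.6 to 360.1 CPM in knockout libraries and 178 to 255 CPM in control libraries. Nearly all of that sum was Thy1, at 280 ± 45.4 CPM in the knockout and 209 ± 30.5 CPM in the control. Of the 8 listed markers, the collagen gene Col1a1 averaged 3.65 CPM in the knockout and 3.09 CPM in the control. The matrix gene Dcn rose to 1.92 ± 0.615 CPM in the knockout, against 0.663 ± 0.229 CPM in the control (adjusted p = 0.0201, edgeR quasi-likelihood test). Col3a1 (1.72 and 1.59 CPM, knockout and control) and Lum (0.164 and 0.0825 CPM) also had higher means in the knockout. Col1a2 (3.23 and 4.35 CPM) and Pdgfra (0.0488 and 0.180 CPM) had lower ones. Pdgfrb was at 0 in all 4 knockout libraries and averaged 0.0458 CPM in the control. The part of these cells in the Cd44 value was not tested. The Cd44 promoter is shown as that of the most abundant gene, with its single GC box in capitals.
Cd44 promoter, chr2:102901616-102901915, minus strand: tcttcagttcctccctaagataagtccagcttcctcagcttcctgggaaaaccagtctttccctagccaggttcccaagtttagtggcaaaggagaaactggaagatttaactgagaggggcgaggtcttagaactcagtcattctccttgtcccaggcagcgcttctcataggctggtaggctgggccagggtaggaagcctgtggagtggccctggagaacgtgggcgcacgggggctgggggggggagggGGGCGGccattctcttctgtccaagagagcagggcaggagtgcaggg
The GC box begins 3 bases after the start that the promoter entry uses, which lies just inside the gene span given above. The window holds no match on either strand to the 4 other motifs searched. These were the TATA box TATAAA (in 13.6% of all promoters), the CCAAT box, the AP-1 site TGANTCA (in 7.81%), and the cyclic AMP response element.

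Ugdh (chr5:65413207-65435842) encodes the dehydrogenase that turns UDP-glucose into UDP-glucuronic acid, one of the 2 building blocks of hyaluronan and also of other glycosaminoglycans. It had 51.1, 48.4, 54.3 and 51.4 CPM in the knockout libraries, against 69.2, 66.7, 66.9 and 63.7 CPM in the control libraries. Both groups were tight and a wide gap lay between them. The means were 51.3 ± 2.38 CPM in the knockout and 66.6 ± 2.27 CPM in the control, a log2 fold change of -0.38 (SE 0.07), or 1.30-fold lower. It stayed between -0.40 and -0.35 when any 1 library was left out. Ugp2 (chr11:21321126-21371267) encodes the pyrophosphorylase that makes UDP-glucose, the step before. It had 99.4, 102, 96.7 and 107 CPM in the knockout libraries, against 99.5, 95.4, 91.9 and 90.9 CPM in the control libraries. These groups overlapped, and the log2 fold change was 0.10 (SE 0.07). Ugp2 overlaps Vps54 in the annotation. The Ugdh promoter is shown for its base composition, 71% G and C against a median of 52.7% over all promoters, and for 3 GC boxes in capitals.
Ugdh promoter, chr5:65435793-65436092, minus strand: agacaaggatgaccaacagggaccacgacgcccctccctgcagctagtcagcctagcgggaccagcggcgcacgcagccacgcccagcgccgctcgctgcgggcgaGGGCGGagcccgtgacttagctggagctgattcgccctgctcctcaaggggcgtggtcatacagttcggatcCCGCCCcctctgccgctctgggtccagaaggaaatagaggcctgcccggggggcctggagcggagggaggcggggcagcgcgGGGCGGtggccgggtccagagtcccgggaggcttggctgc
The other promoters with an entry held 57 to 76% G and C, so all 6 genes were above that median; Has2, Has3 and Tmem2 had no entry.

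The 3 role groups differed in how far libraries of the same genotype spread. The within-group standard deviation on the log2 CPM scale was pooled over both genotypes. It was 0.63 for Has1, 0.71 for Has2 and 0.71 for Has3, larger than in 94.8%, 96.4% and 96.4% of tested genes. It was 0.22 to 0.23 for Hyal1, Hyal2, Tmem2 and Cd44, near the middle of all genes. Ugdh and Ugp2 had 0.06 each, with 1.13% and 1.33% of tested genes below them. The pooled value hides differences between the genotypes. In CPM, the SD of Has2 was 1.83 in the knockout and 21.7 in the control, and that of Has3 7.18 and 83.5. Hyal1 (6.04 and 1.64) and Cd44 (251 and 48.3) instead spread more in the knockout. The 1.30-fold difference of Ugdh and the 2.07-fold difference of Has3 were thus measured against very different spreads.

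**Figure D3:**
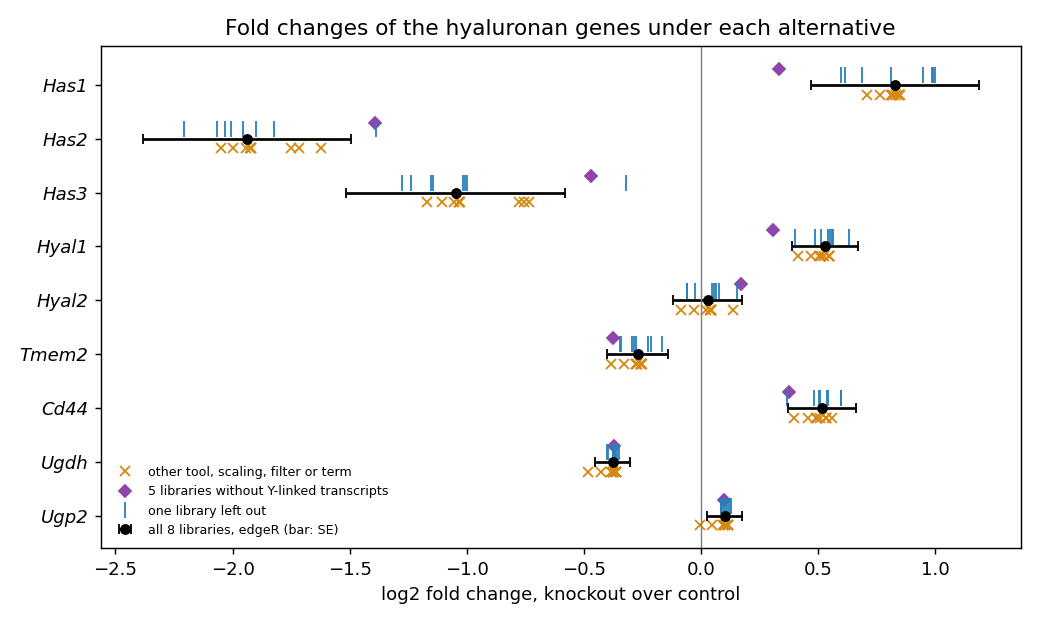
Log2 fold change, knockout over control (x axis), of each of the 9 genes in the edgeR fit of all 8 libraries (black point, bar SE), with 1 library left out, in the 5 libraries without Y-linked transcripts, and with another tool, scaling, filter or term. Has2 spans -2.21 to -1.39, Has3 reaches -0.32 without control replicate 3, and Ugdh stays within -0.48 to -0.35.

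Over the 5 libraries that lack Y-linked transcripts, the remaining log2 fold changes were 0.17 for Hyal2, -0.38 for Tmem2, 0.38 for Cd44, -0.37 for Ugdh and 0.10 for Ugp2. Scaling by library totals alone moved the median of all tested genes to -0.13. Under that scaling the log2 fold changes were -0.48 for Ugdh, -0.01 for Ugp2, 0.40 for Cd44 and 0.41 for Hyal1. Ugp2 thus lost its sign, while Has1, Has2, Has3, Hyal1, Tmem2, Cd44 and Ugdh kept theirs in all 18 alternatives.

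Levels between genes were compared in CPM per kilobase of the longest coding transcript. In the knockout the order was Cd44 (202 ± 44.8), Ugp2 (37.8 ± 1.65), Ugdh (20.1 ± 0.935), Hyal1 (10.04 ± 2.00), Hyal2 (8.57 ± 1.12), Has3 (8.56 ± 1.21), Tmem2 (8.27 ± 1.32), Has1 (3.79 ± 1.55) and Has2 (2.00 ± 0.432). In the control it was Cd44 (142 ± 8.60), Ugp2 (35.2 ± 1.45), Ugdh (26.1 ± 0.888), Has3 (17.7 ± 14.1), Tmem2 (9.98 ± 1.30), Hyal2 (8.40 ± 1.63), Has2 (7.67 ± 5.13), Hyal1 (6.95 ± 0.544) and Has1 (2.13 ± 0.799). Cd44, Ugp2 and Ugdh held the first places by mean in both groups, with no overlap between Cd44 and Ugp2 or between Ugp2 and Ugdh. In control replicate 3, however, Has3 reached 38.6, above Ugp2 and Ugdh in every control library. In the knockout, Ugdh was also above Hyal1, and Tmem2 above Has1, in every library range, while Hyal1, Hyal2, Has3 and Tmem2 overlapped their neighbours, as did Has1 and Has2. In the control, ranges from Ugdh down to Hyal1 overlapped their neighbours, and Hyal1 lay above Has1 without overlap. Has2 was seventh in the control order and last in the knockout order.

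Among the synthases, Has3 exceeded Has1 per kilobase by 4.18-fold in 8 of 8 libraries (exact two-sided sign-flip permutation p = 0.00781, the smallest that 8 libraries allow, adjusted p = 0.0469 over 6 comparisons). Has3 exceeded Has2 by 3.10-fold in 7 of 8 libraries (exact permutation p = 0.0156, adjusted p = 0.0469). That was 4 of 4 knockout and 3 of 4 control libraries, and 4 of 4 in both groups with the mean transcript length. All level tests in this paragraph pool both genotypes, so they are not free of the contrast that chose the genes. Has2 was above Has1 in 4 of 4 control libraries and in 0 of 4 knockout libraries, and over all 8 the mean log2 ratio was 0.43 (exact permutation p = 0.477, adjusted p = 0.572). The 3 pairs of hyaluronidase genes had mean log2 ratios of at most 0.12 in size (adjusted exact permutation p between 0.572 and 0.891), so no order held over all 8. Tmem2 was above Hyal1 in 0 of 4 knockout and 4 of 4 control libraries, Hyal2 above Hyal1 in 0 of 4 and 3 of 4, and Tmem2 above Hyal2 in 2 of 4 and 3 of 4. These splits are a description, since they follow the contrast that chose the genes. With the mean in place of the longest transcript length, Hyal1 exceeded Tmem2 by 0.48 and Hyal2 exceeded Tmem2 by 0.38 on the log2 scale (adjusted exact permutation p = 0.0352 each).

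For the 3 genes of largest absolute fold change, the genes most alike across the 8 libraries were found by the root mean square difference of centred log2 CPM. Has1 was most like Stx11 (0.17), which encodes a syntaxin, and Map3k8 (0.19), a MAP kinase kinase kinase. Stx11 had 58.0, 55.0, 26.8 and 30.9 CPM in the knockout libraries and 25.0, 18.8, 9.64 and 29.9 CPM in the control libraries, so it shared the high knockout replicates 1 and 2 and the low control replicate 3 of Has1. Has3 was most like Col11a2 (0.24), a collagen gene, and Lgmn (0.26), a lysosomal protease gene. Lgmn had 18.6, 13.8, 12.97 and 13.6 CPM in the knockout libraries and 10.97, 19.2, 44.1 and 17.2 CPM in the control libraries, with the same high control replicate 3. Has2 had no gene as close: Itm2a (0.41) and Fzd9 (0.43), the Wnt receptor gene, were nearest, both under 2 CPM. All genes share the genotype and depth of these 8 libraries, so the likeness is a description.

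Beyond the 9 genes, 68 genes of hyaluronan biology were listed and 43 passed the filter on low counts. Of these, 1 rose (Gpi1), 1 fell (Renbp) and 41 did not pass the test, where 4.33% of all tested genes were higher and 4.54% lower. An unadjusted p under 0.05 was found for 13 of the 43 and for 26.2% of all tested genes. Their median log2 fold change was 0.04, against -0.02 over all tested genes. The lists came from textbook knowledge, written with earlier results of these data known, that of Gpi1 among them. In 5 of the 43 the knockout libraries were all above the control libraries and in 4 all below, where all tested genes gave 7.95% and 9%.

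The precursor sugar list held both genes that passed, of 22 tested. Gpi1 encodes glucose-6-phosphate isomerase, which supplies the fructose-6-phosphate that enters amino sugar synthesis. It had 463, 443, 502 and 471 CPM in the knockout libraries, against 366, 371, 336 and 350.2 CPM in the control libraries. It rose 1.32-fold (log2 fold change 0.40, SE 0.08, edgeR adjusted p = 0.0187), with no overlap. An earlier result for Gpi1 in these data was known when the list was written, so its call is a description. The call held in 15 of 18 alternatives and was lost with library totals (adjusted p = 0.0534), with a replicate block (0.0682) and when the 3 libraries holding Y-linked transcripts were left out (0.138), with 3.09e-06 the lowest of the 18. Renbp encodes an epimerase of N-acetylglucosamine, an amino sugar. It had 0.716, 0.786, 0.776 and 0.694 CPM in the knockout libraries, against 2.23, 3.00, 1.72 and 1.93 CPM in the control libraries. It fell 2.98-fold (log2 fold change -1.57, SE 0.24, edgeR adjusted p = 0.00596), and the call held in all 18 alternatives, on 20 to 24 counts per knockout library and 56 to 94 per control library. Both genes were separated without overlap, Gpi1 at a high level and Renbp at a low one.

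The remaining precursor genes without overlap were named after their values were seen. Uap1, which makes UDP-N-acetylglucosamine, averaged 202 ± 46.9 CPM in the knockout and 133 ± 21.4 CPM in the control (edgeR adjusted p = 0.0519). The hexokinase gene Hk2 averaged 185 ± 29.6 and 127 ± 25.0 CPM (adjusted p = 0.0560), and Pgm1, of the phosphoglucomutase family, 23.5 ± 4.59 and 16.7 ± 1.74 CPM (adjusted p = 0.0595), in the knockout and the control. None of these 3 passed edgeR's test, and DESeq2 called all 3 higher. DESeq2 called 1093 of the 13016 genes higher, against 563 with edgeR. Gnpnat1, an acetyltransferase of the N-acetylglucosamine route, averaged 10.6 ± 0.856 CPM in the knockout and 14.1 ± 2.49 CPM in the control (adjusted p = 0.0947). Gnpda1, a glucosamine-6-phosphate deaminase gene, averaged 4.28 ± 0.786 and 6.18 ± 1.16 CPM (adjusted p = 0.112), in the knockout and the control. Enzymes of the route to N-acetylglucosamine thus lay on both sides of 0. The more abundant hexokinase gene Hk1 averaged 213 ± 13.04 CPM in the knockout and 208 ± 27.9 CPM in the control (adjusted p = 0.857).

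**Figure D4:**
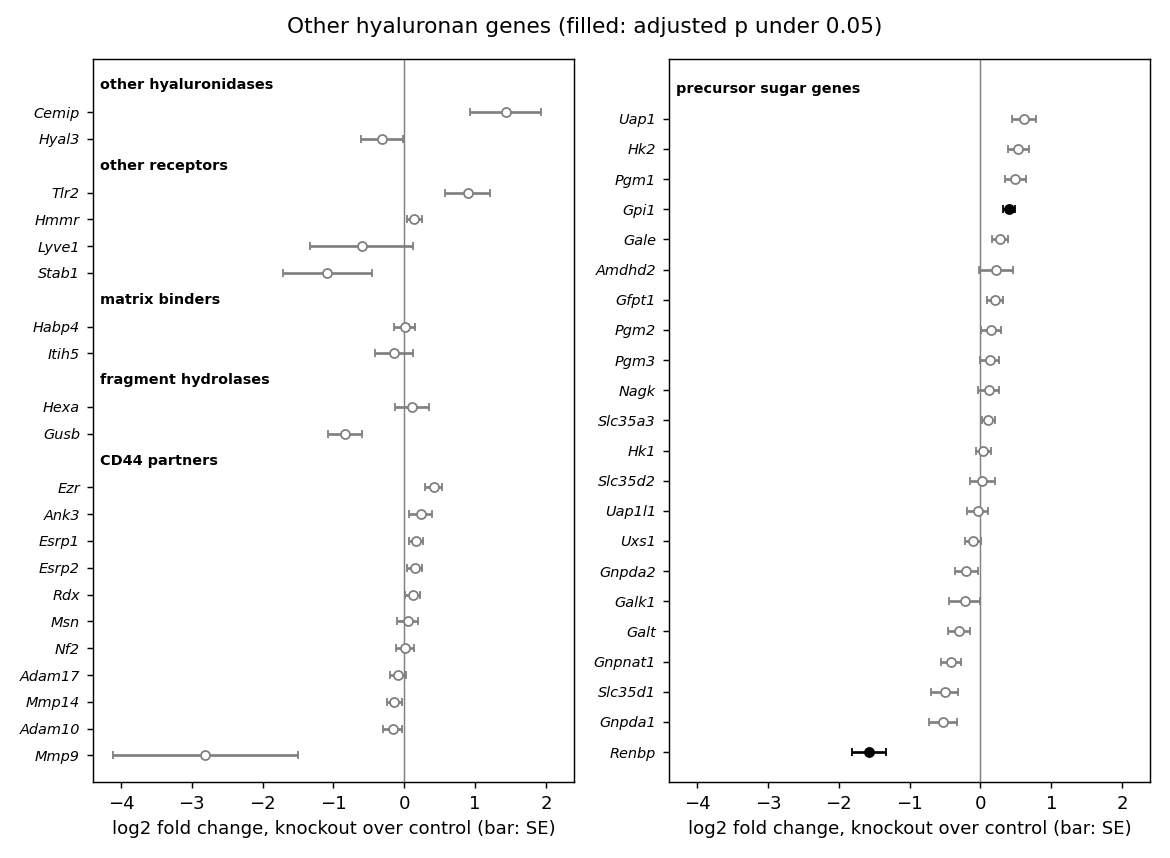
Log2 fold change, knockout over control (x axis), with its SE (bar), of the 43 other hyaluronan genes tested, grouped by role, with genes at an adjusted p under 0.05 filled. Gpi1 (0.40) and Renbp (-1.57) are the 2 filled points, and the remaining 41 are open.

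The lists of other hyaluronidases, other receptors, matrix binders, fragment hydrolases and CD44 partners held 2, 4, 2, 2 and 11 tested genes, of which 0 passed edgeR's test. At an unadjusted p under 0.05 there were 1, 1, 0, 1 and 1 in the same order. limma-voom also called 0 in each, and DESeq2 called Gusb lower and Ezr higher, among 917 lower and 1093 higher of the 13016 genes. Cemip, which encodes a hyaluronan-degrading protein, averaged 0.973 ± 0.510 CPM in the knockout and 0.361 ± 0.206 CPM in the control (adjusted p = 0.101). Hyal3 averaged 0.889 ± 0.198 and 1.11 ± 0.364 CPM (adjusted p = 0.531), in the knockout and the control, while Hyal5, Hyal6 and Spam1 were at 0 in all 8 libraries. Tmem2, Hyal1 and Hyal2 were thus the hyaluronidase genes with the most counts.

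Hmmr, the receptor RHAMM, averaged 65.7 ± 9.81 CPM in the knockout and 59.7 ± 1.86 CPM in the control (adjusted p = 0.445). Stab1, a scavenger receptor of macrophages and endothelium, averaged 2.04 ± 1.00 and 4.32 ± 4.28 CPM (adjusted p = 0.319), in the knockout and the control, with 10.7 CPM in control replicate 3. Among matrix binders, Itih5 averaged 40.2 ± 8.54 CPM in the knockout and 44.4 ± 15.0 CPM in the control, and Habp4 10.7 ± 2.11 and 10.7 ± 0.412 CPM (adjusted p = 0.779 and 0.992). The proteoglycan genes Acan and Bcan had no count in any library, as did Itih1, Ambp and Habp2. Of the lysosomal enzymes that trim hyaluronan fragments, Gusb averaged 7.13 ± 1.18 CPM in the knockout and 12.7 ± 4.63 CPM in the control without overlap (adjusted p = 0.0521), and Hexa 2.84 ± 0.821 and 2.64 ± 0.369 CPM (adjusted p = 0.819). Ezr, the linker ezrin that binds the CD44 tail, averaged 958 ± 138 CPM in the knockout and 719 ± 53.1 CPM in the control, also without overlap (adjusted p = 0.0535). Esrp1, a splicing regulator of CD44 in epithelia, averaged 424 ± 33.1 CPM in the knockout and 379 ± 23.0 CPM in the control (adjusted p = 0.295).

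Genes of other glycosaminoglycans, which draw on the same UDP sugars, were set beside the hyaluronan genes. Of 25 tested, 0 rose and 1 fell in edgeR's test, against 4.33% and 4.54% of all tested genes, and 9 were below an unadjusted p of 0.05, against 26.2% of all. DESeq2 put 1 higher and 4 lower, where it called 1093 higher and 917 lower of the 13016 genes. Their median log2 fold change was -0.17, against -0.02 over all tested genes. Csgalnact2, a transferase of chondroitin sulfate chains, fell to 15.8 ± 1.62 CPM in the knockout, against 20.9 ± 1.47 CPM in the control (log2 fold change -0.40, SE 0.11, edgeR adjusted p = 0.0491). That call was lost in 13 of 18 alternatives, among them every one that left out a library. Ugdh, which serves both kinds of chain, had a log2 fold change of -0.38.

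The differentiation keratin Krt10 rose to 9022 ± 1301 CPM in the knockout, against 5094 ± 1265 CPM in the control (edgeR adjusted p = 0.0169), while the basal keratins Krt5 (24214 and 23793 CPM) and Krt14 (17438 and 17727 CPM) had close means in the knockout and the control. The other differentiation genes of the list did not pass: Krt1 averaged 4598 ± 364 CPM in the knockout and 3805 ± 981 CPM in the control (adjusted p = 0.357), and Lor 35.8 ± 12.7 and 30.9 ± 11.7 CPM (adjusted p = 0.743). The part of keratinocyte differentiation in the values of the hyaluronan genes was not tested. Langerhans cell markers summed to 21.8 to 62.5 CPM in knockout libraries and 22.4 to 73.3 CPM in control libraries, endothelial markers to 0.442 to 2.04 and 0.831 to 4.16 CPM, and melanocyte markers to 6.01 to 7.31 and 5.52 to 6.59 CPM. All of these ranges overlapped between the groups.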

How the data were processed

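RNA of keratinocytes from 4 knockout and 4 control mouse skin samples was sequenced, and the authors deposited whole-number counts per gene symbol, not normalized. Per the submitters' processing notes, the build was mm10 and the tools were TopHat2 2.1.0, Trimmomatic 0.35, SAMtools 0.1.18 and FastQC 0.11.4. The counter, its annotation and its use of strand are not given in the sources used here. Lines naming no gene entered neither the library sizes nor the tests; ambiguous reads made up 0.918 to 1.11% and reads outside genes 15.7 to 21.7%. Knockout replicate 4 was identified by its sample record, since its file name carries another number. Counts were filtered with filterByExpr, scaled by TMM and tested with edgeR 4.0.16 (quasi-likelihood, robust) in R 4.3.3, with Benjamini-Hochberg adjustment over 13016 genes and a threshold of 0.05. The method was tested on simulated data. Log2 CPM used a prior count of 2. The SE of a log2 fold change was its absolute value divided by the square root of the quasi-likelihood F statistic. Alternatives used DESeq2 1.42.0, limma 3.58.1, other scalings and filters, a replicate block, a term for Y-linked transcripts (summed counts above 1000) and fewer libraries. Transcript lengths came from the longest coding transcript in GENCODE, and coordinates from RefSeq. Named besides the 9 genes are, in each other hyaluronan list, each gene called and the 2 of highest mean CPM, and each other glycosaminoglycan gene called. For likeness, the 2 nearest genes were named for each of the 3 of the 9 genes with the largest fold change. A further gene is not reported here. The 9 genes and all lists were chosen with earlier results of these data known.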

Additional observations from a re-analysis of the deposited data

Results flagged for a closer look

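In 4 groups of 4 libraries, 1 library stood apart from the other 3 by a gap above Dixon's critical value, which chance exceeds in about 1 in 20 groups, and 62 groups were examined. Has3 in knockout replicate 1 was the highest knockout value, at 61.3 CPM, with a gap of 0.846 of the range, yet all 4 knockout values lay between 45.9 and 61.3 CPM. Lgmn was also highest in knockout replicate 1 among knockouts, at 18.6 CPM, with a gap of 0.854. It was picked for its likeness to Has3 over these same libraries, so its flag is not separate from that of Has3. In control replicate 3, Stab1 was the highest control value at 10.7 CPM (gap 0.868) and Itih5 the lowest at 22.1 CPM (gap 0.859). Control replicate 3 also held the highest Has3 and the lowest Has1 value of all 8 libraries.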

How the results depend on the processing

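Of all genes, 563 were called higher and 591 lower in the knockout. DESeq2 called 1093 and 917, library totals 370 and 997, the replicate block 375 and 348, the 5 libraries without Y-linked transcripts 141 and 242, and leaving out 1 library gave 200 to 678 higher and 262 to 569 lower. Same-numbered libraries did not deviate together (correlations -0.23 to -0.05), and no library was most like the one with its own number. A weak pairing could escape this check, and the labels do not say whether equal numbers pair libraries. Of the other hyaluronan genes, 1 was called higher and 1 lower. Higher calls were 5 with DESeq2, 2 with the replicate block, 3 with the Y-linked term, 0 in the 5 libraries and 1 to 4 with 1 library left out. Lower calls were 2 with DESeq2, upper-quartile scaling and library totals, and 1 to 2 with 1 library left out. Of the other glycosaminoglycan genes, 0 were called higher and 1 lower. DESeq2 gave 1 and 4. Lower calls were 0 with RLE scaling, with no filter and with the block, and 2 with upper-quartile scaling and with library totals. With 1 library left out, 0 to 1 were called in each direction. Log2 fold changes moved to -0.48 for Ugdh and reversed to -0.00571 for Ugp2 with library totals, and moved to 0.31 for Hyal1 in the 5 libraries. With 1 library left out, Has3 ranged from -1.28 to -0.32. Habp4 reversed, within 0.12 of 0: -0.013 with limma-voom, -0.0444 with upper-quartile scaling, -0.097 with library totals, -0.00262 with a filter of 1 CPM, -0.0159 with the block, -0.0679 with the Y-linked term, and down to -0.117 with 1 library left out. Hk1 reversed to -0.0157 with upper-quartile scaling, -0.0700 with library totals, -0.0211 in the 5 libraries, and ranged from -0.00879 to 0.13 with 1 library left out. Hexa reversed to -0.00558 with library totals and ranged from -0.0723 to 0.27 with 1 library left out. With the mean transcript length the log2 level ratios reversed to 0.10 for Hyal1 over Hyal2, 0.48 for Hyal1 over Tmem2 and 0.38 for Hyal2 over Tmem2. The cause of these changes was not tested. Fewer libraries lower the power of each test, and depth limits genes under about 1 CPM.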
